A study of Arabidopsis thaliana with 8 samples.

Results

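The 10 lipid-transfer protein genes LTP1 (AT2G38540), LTP2 (AT2G38530), LTP3 (AT5G59320), LTP4 (AT5G59310), LTP5 (AT3G51600), LTP6 (AT3G08770), AT2G37870, AT3G58550, AT5G46890 and AT5G46900 were followed through 8 RNA-seq libraries of Arabidopsis thaliana. These 10 genes, of 26547 with a read in any library, were chosen by their gene identifiers with the ratios between these same libraries already known. Their levels and ratios are therefore given as a description, without a test. The last 4 carry no gene symbol, and RefSeq describes each as a member of the bifunctional inhibitor/lipid-transfer protein/seed storage albumin superfamily.

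The series compared wild-type Col-0 with lsm8-1, a mutant line of LSM8 in the Col-0 background. LSM8 is the subunit that sets apart the nuclear LSM ring, which holds the U6 RNA used in splicing. All plants were 2 weeks old, were grown in long days, and gave tissue labelled as leaves. In the cold experiment plants stood on soil, either at 20 °C under 90 µmol of photons per m2 per s or for 24 h at 4 °C under 40 µmol, so that the cold groups also had less light. In the salt experiment plants stood on 0.5X GM medium under 90 µmol, and the treated group was moved for 10 h to plates with 150 mM NaCl. No label gives a temperature for the plates, and none describes a mock transfer of the plants left on GM. Each of the 8 groups, 2 genotypes in 4 conditions, was 1 library from a single mutant line, so no difference between 2 libraries has a replicate check.

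Non-specific lipid-transfer proteins are small secreted proteins held in shape by disulphide bonds, with a hydrophobic tunnel that binds fatty acids and other lipids in vitro. In leaves and stems they accumulate mainly in the epidermis and its outer wall, where the cuticle is laid down, and members have been linked to cuticle and suberin deposition, to defence and to the response to abscisic acid. The transcription factor MYB96, which activates wax synthesis under drought, is known to activate LTP3.

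Neighbouring genes make up 3 pairs of the 10. LTP2 and LTP1 follow each other on the same strand of chromosome 2. LTP4 and LTP3 lie side by side on opposite strands of chromosome 5, and AT5G46890 and AT5G46900 follow each other on its minus strand. The coding sequences were 82.4% identical between LTP1 and LTP2, 84.5% between LTP3 and LTP4, and 97.4% between AT5G46890 and AT5G46900, against 39.1% to 67.8% for every other pairing of the 10. The longest run of bases that each pair shares is shown because it sets how far reads can be told apart. These runs were read from the TAIR10.1 RefSeq assembly, 5′ to 3′ along the coding strand:
LTP1 and LTP2, chr2:16130418-16130444 and chr2:16128481-16128507: atggctggagtgatgaagttggcatgc
LTP3 and LTP4, chr5:23929309-23929352 and chr5:23925480-23925523: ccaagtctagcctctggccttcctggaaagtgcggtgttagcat
AT5G46890 and AT5G46900, chr5:19036437-19036616 and chr5:19039954-19040133: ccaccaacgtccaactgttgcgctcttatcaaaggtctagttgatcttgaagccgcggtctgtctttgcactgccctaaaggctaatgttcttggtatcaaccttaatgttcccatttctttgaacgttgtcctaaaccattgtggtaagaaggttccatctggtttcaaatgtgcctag

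The shared runs of LTP1 and LTP2, 27 bases, and of LTP3 and LTP4, 44 bases, were shorter than 50 bases, and no window of 50 bases in the exons of these 4 genes occurred elsewhere in the assembly. AT5G46890 and AT5G46900 share 180 bases at the end of the coding sequence. Among their 50-base exon windows, 26.8% and 22.5% occurred elsewhere in the assembly. Neither the read length nor the handling of reads with several matches is given in the sources used here, so the counts of this pair are uncertain as single genes and are read together. The other 8 genes had no such window.

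The 250 bases before the annotated start of LTP1, LTP2, LTP3 and LTP4 are shown because these 4 genes were higher together under NaCl. AT2G37870 was higher there too, and its window is not shown. For LTP2 the RefSeq exons total 1113 bases against 670 bases in the counted model. They total 832 against 706 bases for LTP1, 769 against 681 for LTP3 and 830 against 630 for LTP4. The annotated starts here may therefore differ from those of the counted models. Capitals mark the core of the abscisic acid response element, ACGTG, and the core of the drought response element, CCGAC, on either strand (read in reverse as CACGT and GTCGG). The sequences are from the TAIR10.1 RefSeq assembly, written 5′ to 3′ toward the gene:
LTP1 promoter, chr2:16130040-16130289, plus strand: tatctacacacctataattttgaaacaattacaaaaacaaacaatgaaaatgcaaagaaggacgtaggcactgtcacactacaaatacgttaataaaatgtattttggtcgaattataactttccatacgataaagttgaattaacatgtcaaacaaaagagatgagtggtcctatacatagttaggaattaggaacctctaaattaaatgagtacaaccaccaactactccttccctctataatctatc
LTP2 promoter, chr2:16127926-16128175, plus strand: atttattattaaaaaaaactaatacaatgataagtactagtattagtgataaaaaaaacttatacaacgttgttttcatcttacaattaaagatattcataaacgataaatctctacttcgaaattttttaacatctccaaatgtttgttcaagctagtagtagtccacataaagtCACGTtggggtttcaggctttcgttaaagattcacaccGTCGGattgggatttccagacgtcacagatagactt
LTP3 promoter, chr5:23928704-23928953, plus strand: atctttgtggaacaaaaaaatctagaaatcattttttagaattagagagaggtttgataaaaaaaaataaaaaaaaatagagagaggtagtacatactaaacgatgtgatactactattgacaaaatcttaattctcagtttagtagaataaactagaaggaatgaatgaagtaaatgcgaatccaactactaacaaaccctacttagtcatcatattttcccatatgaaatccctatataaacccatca
LTP4 promoter, chr5:23925958-23926207, minus strand: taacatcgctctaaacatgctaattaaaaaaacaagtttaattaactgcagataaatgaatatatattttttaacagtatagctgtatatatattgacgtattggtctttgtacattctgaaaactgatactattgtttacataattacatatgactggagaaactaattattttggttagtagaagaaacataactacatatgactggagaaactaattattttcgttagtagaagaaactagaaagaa

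Within this window LTP2 held 1 match to each motif, and LTP1, LTP3 and LTP4 held neither. Of the other 6 genes, AT2G37870 and AT5G46900 held 1 ACGTG each and none held CCGAC. Among the 27443 promoters of the same length in the annotation, 22.9% held ACGTG and 12.0% held CCGAC. The motifs do not overlap in LTP2. The windows before AT2G37870, LTP5 and AT3G58550 reach into a neighbouring coding gene.

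Library totals were 44.2 to 45.9 M reads (M, 1e6) in the cold experiment and 33.4 to 34.0 M in the salt experiment. LSM8 itself was lower in the library labelled lsm8-1 in all 4 conditions, with 5.55 against 17.3 counts per 1e6 reads (CPM) in warm soil, 21.2 against 48.2 after cold, 1.31 against 6.31 on GM and 0.707 against 4.65 under NaCl. In edgeR's quasi-likelihood test of an additive fit over all 8 libraries, its log2 change in lsm8-1 was −1.85 (SE 0.24, adjusted p = 0.0219). The adjusted p rose to 0.103 without the 20 °C pair and to 0.0626 without the GM pair. All 7 stress genes used as a check of the treatments (COR15A, RD29A, KIN1, RD29B, RAB18, NCED3 and CBF3) passed the same test as higher both at 4 °C and with NaCl. Of 8 root markers, 6 to 7 reached 5 CPM in the plate libraries and 1 to 2 in the soil libraries. Their summed level was 5982 CPM in Col-0 and 3866 in lsm8-1 on GM, 2304 and 1795 with NaCl, and between 50.4 and 145 on soil; BGLU23 made up most of it. EXPA7 had no read in any soil library. In warm soil the 4 epidermis markers summed to 1539 CPM in Col-0 and 1320 in lsm8-1, and after cold to 1369 and 947. On GM they summed to 1062 and 1121 CPM and under NaCl to 853 and 784. All 4 reached 5 CPM in every library. All 5 mesophyll markers did too, with sums of 93419 CPM in Col-0 and 88173 in lsm8-1 in warm soil, 67559 and 63510 after cold, 27676 and 39474 on GM, and 24895 and 42586 under NaCl. LHCB3 among them passed as higher in lsm8-1 (log2 change 1.02, SE 0.15, adjusted p = 0.0294 in edgeR's test), a call lost without the 4 °C, the GM or the NaCl pair (adjusted p up to 0.135). This mesophyll sum was higher in lsm8-1 on both kinds of plate, as LTP1, LTP2 and LTP3 were. RBCS1A among the mesophyll markers was at 1632 CPM in Col-0 and 1687 in lsm8-1 under NaCl, and the rest were further apart. The epidermis sum was higher in lsm8-1 on GM only. The part of either sum in the differences of LTP1, LTP2 and LTP3 was not tested. In such bulk samples, fewer cells of a type and less RNA per cell cannot be told apart, and soil and plate libraries were not set against each other.

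CPM values here are scaled with edgeR's trimmed mean of M-values (TMM), and a ratio carries an exact 95% interval that covers counting error only. A gene is called higher or lower where the ratio on the scale log2(CPM + 1) reached 2-fold and at least 1 of the 2 libraries held 5 CPM. The 4 comparisons of each experiment share libraries: each Col-0 and each lsm8-1 library enters both a genotype comparison and a treatment comparison. Scaling by library totals in place of TMM shifted log2 ratios, before any pseudocount, by −0.13 in lsm8-1 against Col-0 both on GM and with NaCl. The shift was 0.12 in the cold response of Col-0 and less than 0.1 in the other comparisons. Members that sit within such a shift of a ratio of 1 are given no direction.

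The 10 genes took 0.249% of the Col-0 reads and 0.245% of the lsm8-1 reads at 20 °C, then 0.332% and 0.271% after cold. On GM the shares were 0.195% in Col-0 and 0.217% in lsm8-1, and with NaCl they were 0.816% and 1.02%. LTP1 alone held 83.2% to 88.2% of these reads on soil, 66.0% and 75.0% on GM, and 49.1% and 45.7% with NaCl, where LTP3 had become the runner-up. Both NaCl libraries stood far above both GM libraries.

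**Figure D1:**
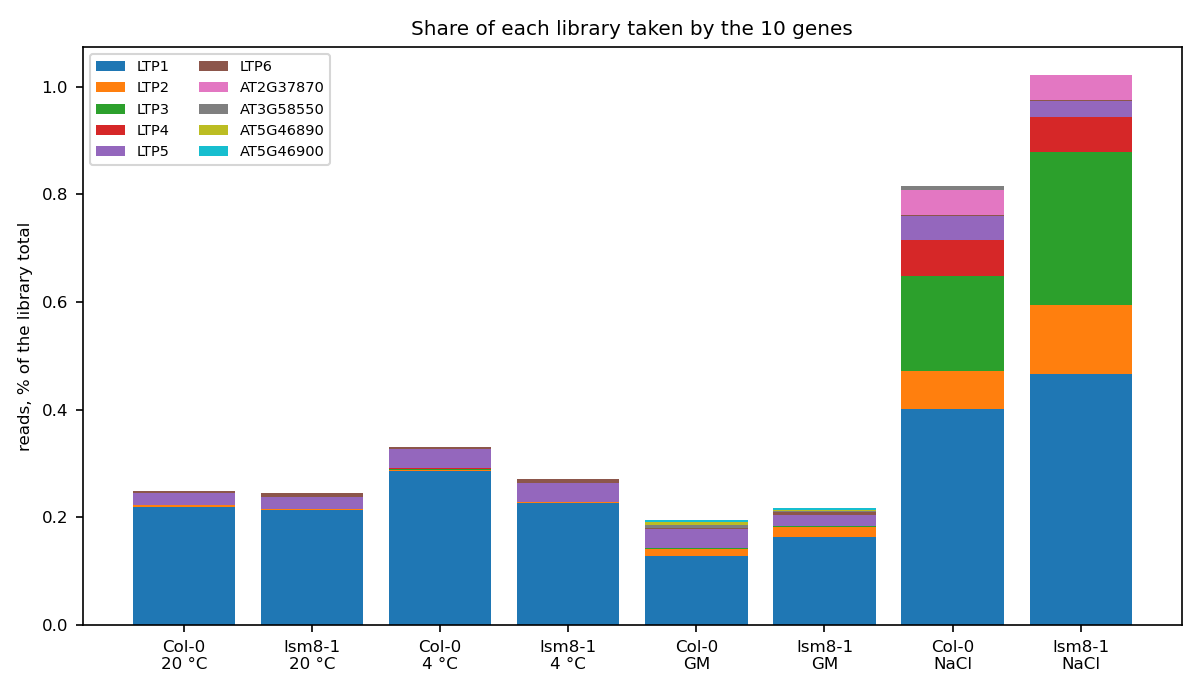
Reads of the 10 genes as a percentage of each library's total (y axis) for the 8 libraries (x axis); each bar is 1 library and each colour 1 gene. LTP1 fills most of every bar on soil and on GM, and the bars with NaCl reach 0.816% and 1.02%, with LTP1 itself at 0.400% and 0.467% and LTP3 at 0.177% and 0.285%.

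Levels between genes were compared only per length, with the reads per kilobase of model and per 1e6 reads (RPKM) that the authors deposited. In Col-0 at 20 °C the order ran from LTP1 at 3117 RPKM through LTP5 at 299, LTP6 at 61.7 and LTP2 at 43.6 to AT3G58550 at 1.43, LTP3 at 0.931, AT2G37870 at 0.435 and LTP4 at 0.431. The counting intervals overlapped between each neighbouring pair from AT3G58550 down, and AT5G46890 and AT5G46900 had no read. The first 4 places were the same in all 4 soil libraries. In Col-0 on GM the order was LTP1 (1824 RPKM), LTP5 (476), LTP2 (196), AT5G46890 (81.2), AT5G46900 (64.7), AT3G58550 (62.1), LTP6 (42.1), LTP3 (7.81), AT2G37870 (1.72) and LTP4 (1.52). Intervals overlapped there between AT5G46900 and AT3G58550 and between AT2G37870 and LTP4. In Col-0 with NaCl it was LTP1 (5672 RPKM), LTP3 (2600), LTP2 (1066), LTP4 (1059), AT2G37870 (812), LTP5 (577), AT3G58550 (118), LTP6 (28.6), AT5G46890 (2.37) and AT5G46900 (1.64). LTP2 and LTP4 were level within counting error in that library, as were AT5G46890 and AT5G46900. In lsm8-1 with NaCl LTP2 reached 1898 RPKM against 1026 for LTP4, while AT3G58550 stood behind LTP6 (7.21 against 37.9 RPKM).

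**Figure D2:**
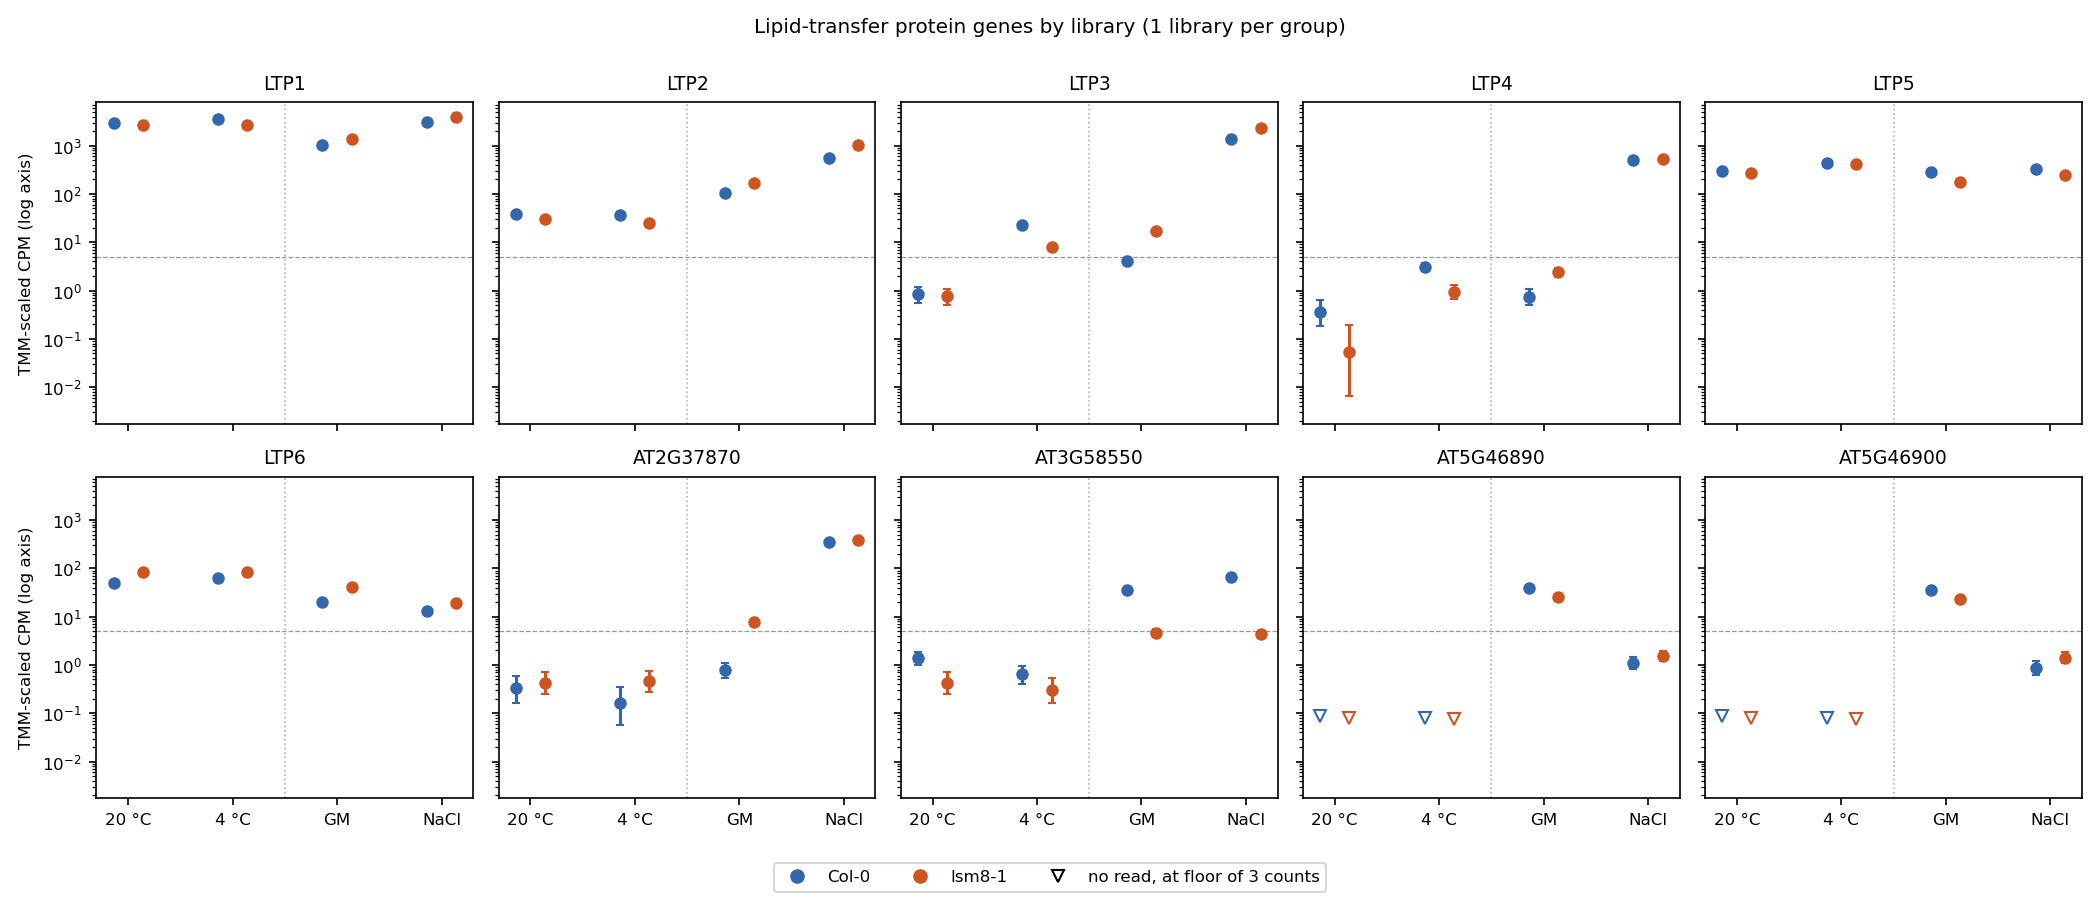
TMM-scaled CPM (y axis, log scale) of each of the 10 genes in Col-0 and lsm8-1 under the 4 conditions (x axis); each point is 1 library, bars are exact 95% counting intervals, open triangles mark no read at the floor of 3 counts, the dashed line is 5 CPM, and the dotted line parts the soil from the plate experiment. LTP3, LTP4 and AT2G37870 span more than 2 orders of magnitude on plates, AT5G46890 and AT5G46900 are high on GM and low with NaCl, and AT3G58550 is low in lsm8-1 on plates.

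LTP1 encodes the most abundant of these proteins by transcript, a cell wall protein of the epidermis. At 20 °C Col-0 held 2909 CPM and lsm8-1 2644 CPM, and at 4 °C they held 3479 and 2672 CPM. The GM pair, Col-0 first, read 1011 and 1397 CPM and the NaCl pair 3041 and 3872 CPM. On plates both NaCl libraries were above both GM libraries, and on soil Col-0 after cold stood apart from the other 3. With NaCl it was 3.01-fold higher than on GM in Col-0 (2.98 to 3.04) and 2.77-fold higher in lsm8-1 (2.74 to 2.80). At 4 °C the ratio to 20 °C was 1.20 in Col-0 and 1.01 in lsm8-1. Against Col-0, lsm8-1 had 0.768 of the level at 4 °C (0.762 to 0.774) but 1.38 times on GM (1.36 to 1.40) and 1.27 times with NaCl (1.26 to 1.28), all short of 2-fold.

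LTP2, the neighbour of LTP1, acts at the boundary between cuticle and cell wall of the epidermis. At 20 °C Col-0 held 38.6 CPM and lsm8-1 30.0 CPM, and at 4 °C 36.2 and 24.7 CPM. The plate libraries held 103 CPM (Col-0) and 168 CPM (lsm8-1) on GM, then 542 and 1055 CPM after NaCl. Both NaCl libraries were above both GM libraries, and within each condition on plates lsm8-1 was above Col-0, whereas on soil it was below. NaCl against GM was 5.27-fold in Col-0 (5.10 to 5.44) and 6.26-fold in lsm8-1 (6.10 to 6.43). On soil lsm8-1 had 0.775 of the Col-0 level at 20 °C and 0.682 after cold, and on plates 1.64 times on GM and 1.95 times under NaCl (1.91 to 1.98), the last just under the 2-fold line. Per length, LTP1 exceeded LTP2 by 71.4 to 103 times on soil, by 9.32 and 7.87 times on GM, and by 5.32 and 3.48 times with NaCl.

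LTP3 and LTP4 have been tied to abscisic acid and to the response to pathogens, and LTP3 also to freezing and drought tolerance. LTP3 had 28 reads in each library at 20 °C, 0.838 CPM for Col-0 and 0.755 CPM for lsm8-1, and 22.7 and 8.13 CPM at 4 °C. Its GM pair, Col-0 first, was at 4.18 and 17.0 CPM and its NaCl pair at 1344 and 2361 CPM. Each treated library was above both untreated libraries of its experiment. The cold ratio was 27.1 in Col-0 (18.6 to 41.0) and 10.8 in lsm8-1 (7.30 to 16.5), and the salt ratio was 322 in Col-0 (278 to 375) and 139 in lsm8-1 (128 to 150).

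Between the genotypes LTP3 did not keep 1 direction. At 20 °C lsm8-1 had 0.901 times the Col-0 level (0.514 to 1.58). It had 0.358 times that level at 4 °C (0.314 to 0.408) but 4.08 times on GM (3.45 to 4.84) and 1.76 times under NaCl (1.74 to 1.77). The GM ratio rests on 666 against 178 reads and the ratio at 4 °C on 315 against 854.

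LTP4 was scarce outside the NaCl libraries. At 20 °C 12 reads fell on it in Col-0 (0.359 CPM) and 2 in lsm8-1 (0.0539 CPM), and at 4 °C 118 and 37 reads (3.13 and 0.954 CPM). The GM pair, Col-0 first, had 32 and 93 reads (0.751 and 2.38 CPM) and the NaCl pair 22654 and 22000 reads (507 and 536 CPM). Only the last 2 libraries held 5 CPM. NaCl against GM was 675-fold in Col-0 (478 to 987) and 225-fold in lsm8-1 (184 to 279). At 4 °C the ratio to 20 °C was 8.72 in Col-0 (4.81 to 17.4) and 17.7 in lsm8-1 (4.57 to 152), the latter from 37 against 2 reads. Its genotype ratios lay on the same sides of 1 as those of LTP3 at 4 °C, 0.305 (0.205 to 0.444), and on GM, 3.17 (2.1 to 4.90), while with NaCl it was 1.06 (1.04 to 1.08), which turned to the other side of 1 when libraries were scaled by their totals. Per length, LTP3 exceeded LTP4 in every library, by 2.16 times in Col-0 at 20 °C up to 13.0 times in lsm8-1 at 20 °C, and by 2.45 and 4.07 times with NaCl.

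LTP5, which has been studied for its part in pollen tube growth, stayed within 2-fold in all 8 comparisons. Col-0 held 297 CPM of it and lsm8-1 272 CPM at 20 °C, and 432 and 421 CPM after cold. The GM pair, Col-0 first, read 281 and 177 CPM and the NaCl pair 330 and 247 CPM. Both cold libraries were above both at 20 °C, with ratios of 1.45 in Col-0 and 1.55 in lsm8-1, and salt ratios were 1.17 and 1.39. lsm8-1 had 0.630 of the Col-0 level on GM (0.611 to 0.649) and 0.748 with NaCl (0.729 to 0.767), and within 0.13 (log2) of it on soil.

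LTP6 was the only one of the 10 above Col-0 in lsm8-1 by an interval clear of 1 in all 4 conditions. Col-0 held 49.3 CPM of it and lsm8-1 83.4 CPM at 20 °C, and 63.8 and 83.3 CPM after cold. On plates the GM pair, Col-0 first, read 19.7 and 40.5 CPM and the NaCl pair 12.9 and 18.7 CPM. The corresponding ratios were 1.69 (1.59 to 1.80), 1.31 (1.24 to 1.38), 2.06 (1.89 to 2.24) and 1.45 (1.30 to 1.61). On the log2(CPM + 1) scale the GM difference was 1.00, at the 2-fold line, and it was 0.88 when scaled by library totals or with a pseudocount of 5. With NaCl LTP6 stood at 0.657 of its GM level in Col-0 (0.590 to 0.731) and 0.462 in lsm8-1 (0.423 to 0.504). The latter log2 difference, −1.07, was −0.94 with a pseudocount of 5.

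AT2G37870 was near the limit of detection on soil and abundant with NaCl. Col-0 and lsm8-1 gave 11 and 16 reads at 20 °C and 6 and 18 reads after cold. On GM they gave 33 reads (0.774 CPM) and 305 reads (7.80 CPM), and under NaCl 15799 reads (353 CPM) and 15765 reads (384 CPM). On GM lsm8-1 exceeded Col-0 10.1-fold (7.03 to 14.9), whereas with NaCl the ratio was 1.09, which fell to the other side of 1 under scaling by totals. The salt ratio was 456 in Col-0 (325 to 663) and 49.2 in lsm8-1 (44.0 to 55.3).

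On plates AT3G58550 was further below Col-0 in lsm8-1 than any other of the 10. Col-0 and lsm8-1 gave 46 and 16 reads at 20 °C and 24 and 12 reads after cold. On GM they gave 1516 reads (35.6 CPM) and 183 reads (4.68 CPM), and under NaCl 2920 reads (65.3 CPM) and 179 reads (4.36 CPM). On plates each Col-0 library was above the lsm8-1 library of its condition, 7.59-fold on GM (6.51 to 8.90) and 15.0-fold with NaCl (12.9 to 17.5). On soil lsm8-1 had 0.313 of the Col-0 level at 20 °C (0.166 to 0.564). At 4 °C it had 0.486 (0.221 to 1.01), an interval that includes 1. The salt ratio was 1.84 in Col-0 (1.73 to 1.95) and 0.932 in lsm8-1 (0.754 to 1.15). AT3G58540, which overlaps this gene on the opposite strand, gave 14 and 33 reads on GM and 42 and 73 reads under NaCl, Col-0 first. Whether reads were counted by strand is not given in the sources used here.

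AT5G46890 and AT5G46900 were the only members with no read in any soil library, which allows up to 0.0774 to 0.0898 CPM (3 counts). AT5G46890 was at 39.6 CPM in Col-0 and 25.1 in lsm8-1 on GM, and at 1.12 and 1.54 with NaCl. AT5G46900 was at 35.6 and 23.3 CPM on GM, and at 0.872 and 1.41 with NaCl. Under NaCl AT5G46890 was 35.4-fold lower in Col-0 (26.7 to 47.9) and 16.3-fold lower in lsm8-1 (12.6 to 21.4), while AT5G46900 was 40.8-fold (29.7 to 57.7) and 16.5-fold lower (12.6 to 21.9). On GM lsm8-1 had 0.633 and 0.654 of the Col-0 level. Summed, the pair had 0.643 of the Col-0 level on GM (0.607 to 0.681) and 1.48 times that level under NaCl (1.12 to 1.97, 121 against 89 reads). The 7 root markers other than BGLU23 summed to 320 CPM in Col-0 and 269 in lsm8-1 on GM, and to 135 and 169 CPM under NaCl, in the same order as this pair in all 4 plate libraries. With BGLU23, the largest root marker, the sum was higher in Col-0 under NaCl too, so that order did not hold. Among the 7, TIP2;3 (13.2 and 6.66 CPM, Col-0 first) and MYB36 (6.60 and 4.32) were also lower in lsm8-1 under NaCl. The rest of the 7 were higher there, PHT1;1 by the most CPM (59.8 and 80.6). PHT1;1 also made up most of the sum of the 7 on GM (200 and 177 CPM). NRT2.1 and MYB36 were higher with NaCl than on GM in both genotypes, and EXPA7 was in lsm8-1. The sum of the 7 fell far less with NaCl than the pair did. The part of the root markers in these differences was not tested.

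**Figure D3:**
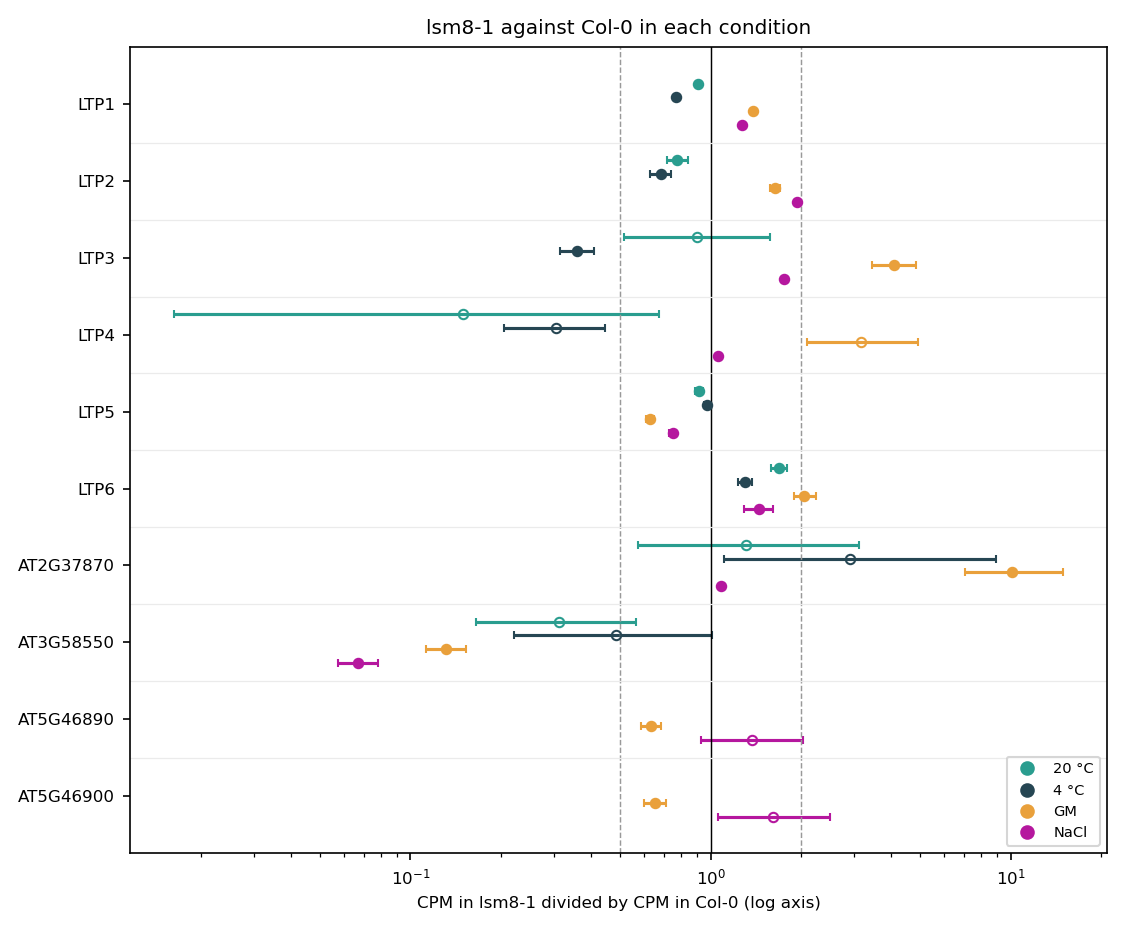
Ratio of CPM in lsm8-1 to CPM in Col-0 (x axis, log scale) for each gene (y axis) in the 4 conditions; each point compares 1 library with 1 library, bars are exact 95% counting intervals, open points are pairs in which neither library held 5 CPM, and dashed lines mark 2-fold. LTP3 lies left of 1 at 4 °C and right of 1 on GM, and LTP6 lies right in every condition. AT3G58550 lies left in every condition, with an interval that includes 1 at 4 °C.

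Counted by the 2-fold rule, lsm8-1 against Col-0 at 20 °C gave 0 higher and 0 lower calls among the 4 members with 5 CPM in at least 1 library. Over all tested genes 0.787% were called higher and 0.443% lower. At 4 °C 1 of 5 was lower, LTP3, against 0.706% of all tested genes, and 0 were higher against 1.7%. On GM 3 of 9 were higher, LTP3, LTP6 and AT2G37870, against 1.56%, and 1 was lower, AT3G58550, against 1.62%. With NaCl 0 of 8 were higher against 2.81%, and AT3G58550 alone was lower against 1.37%. Since these ratios were known when the genes were chosen, nothing is read from the excess over all genes. The median log2 ratio over the members at 5 CPM was −0.13, −0.38, 0.47 and 0.23 in the 4 conditions, beside medians of all genes of 0.04, 0.03, 0.00 and 0.00.

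In the cold response of Col-0, 1 of 5 members was higher, LTP3, and 0 were lower, beside 11.6% and 10.9% of all tested genes. In lsm8-1 it was again LTP3 alone that was higher and none was lower, beside 11.0% and 9.95%. The members' median was 0.37 (log2) in Col-0 and 0.02 in lsm8-1, against −0.02 and −0.04 for all genes. So 24 h at 4 °C left LTP1, LTP2, LTP5 and LTP6 within 2-fold in both genotypes.

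With salt 10 members in Col-0 and 9 in lsm8-1 could be compared, against 5 in each genotype in the cold. More members were called with salt. Since the ratios were known when the genes were chosen, nothing is read from that or from an excess over all genes. In Col-0, 5 of 10 members were higher with NaCl, LTP1, LTP2, LTP3, LTP4 and AT2G37870, and 2 were lower, AT5G46890 and AT5G46900, beside 10.4% and 8.27% of all tested genes. In lsm8-1 the same 5 of 9 were higher and LTP6 joined the 2 lower ones, beside 10.8% and 6.88%. The members' median was 1.22 (log2) in Col-0 and 1.47 in lsm8-1, against −0.01 and 0.00 for all genes.

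**Figure D4:**
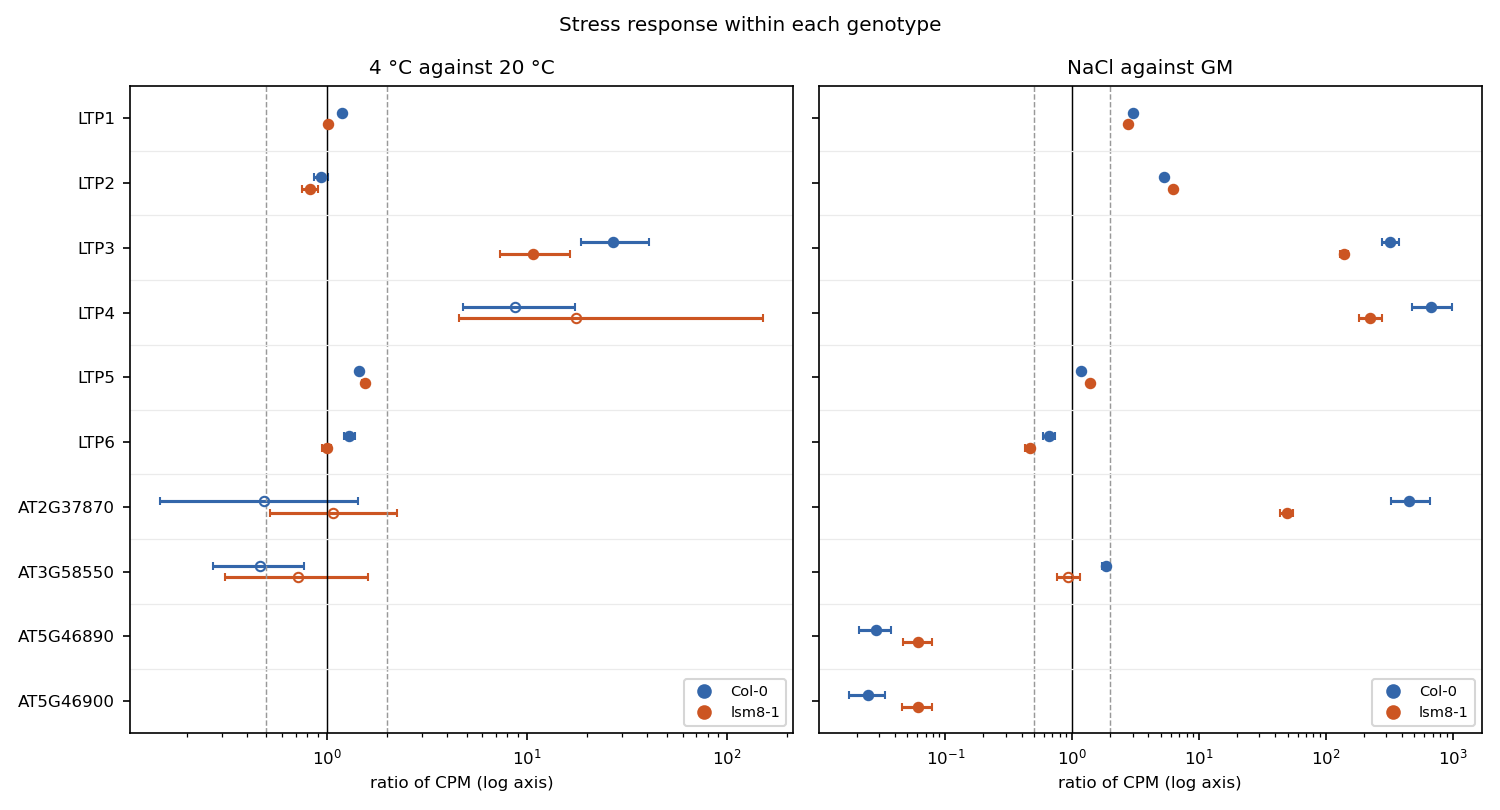
Ratio of CPM at 4 °C to 20 °C (left) and with NaCl to GM (right) on log x axes for each gene (y axis) in Col-0 and lsm8-1; points compare 1 library with 1 library, bars are exact 95% counting intervals, open points have neither library at 5 CPM, and dashed lines mark 2-fold. LTP3 and LTP4 lie far right of 1 in both panels, AT2G37870 only in the salt panel, and AT5G46890 and AT5G46900, which have no cold ratio, lie far left.

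The salt response differed in size between the genotypes for several members. On the scale log2(CPM + 1), the lsm8-1 response minus the Col-0 response was −2.19 for AT2G37870, −0.99 for LTP3 and −0.87 for LTP4, all of which were already higher in lsm8-1 on GM, but 0.25 for LTP2 and −0.12 for LTP1, which were too. It was −0.50 for LTP6, −0.94 for AT3G58550, and 0.90 and 0.96 for AT5G46890 and AT5G46900, whose ratio of NaCl to GM was nearer 1 in lsm8-1. Over the 14412 genes with 5 CPM in the salt experiment the median of this difference was 0.01 and the 10th to 90th percentiles ran from −0.41 to 0.48. These sizes depend on the pseudocount: with 0.25 and with 5 in place of 1, the difference was −2.85 and −1.03 for AT2G37870, −1.15 and −0.45 for LTP3, and −1.31 and −0.28 for LTP4. In the cold the difference was −1.31 for LTP3 and 0.41 for AT3G58550, which had 12 to 46 reads there, and between −0.37 and 0.23 for the other members with reads except LTP4, with a range of −0.43 to 0.39 between the same percentiles of 15041 genes. For LTP4, with 2 to 118 reads, it was −0.71, while the ratios without a pseudocount, 8.72 in Col-0 and 17.7 in lsm8-1, went the other way and their intervals overlap, so no direction is given. With 1 library per group none of these differences was tested. MYB96 stood at 2.51 CPM in Col-0 and 1.61 in lsm8-1 on GM and at 10.5 and 6.31 with NaCl. All 7 stress genes used as a check were also lower in lsm8-1 with NaCl, whereas LTP1, LTP2 and LTP3 were higher there. With NaCl, Col-0 first, RD29B was at 115 and 30.2 CPM, RAB18 at 937 and 531 and KIN1 at 832 and 436. RD29A was at 4372 and 1596 CPM there, COR15A at 1308 and 399, NCED3 at 227 and 152 and CBF3 at 12.1 and 10.4. After cold MYB96 (121 and 82.6 CPM, Col-0 first), RD29B (32.8 and 14.8) and RAB18 (33.8 and 15.3) were lower in lsm8-1, as LTP3 was. The rest of the stress genes used as a check did not share this size of difference. KIN1 was at 808 and 818 CPM, COR15A at 7444 and 7933 and RD29A at 6829 and 6911. NCED3 was at 36.6 and 34.7 CPM and CBF3 at 17.1 and 13.9. A link of any of these genes to LTP3 was not tested.

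The rest of the family, and the cuticle and suberin genes around it, were taken from lists and tested in the additive fit. These lists were chosen with earlier results of these data known. Their call counts therefore describe the lists and are not tests of lists set in advance. The fit holds 1 term for genotype and 1 for each of the 4 conditions, with 3 residual degrees of freedom. Benjamini-Hochberg adjustment ran over all 20228 tested genes. Over these genes 0.756% were higher and 0.336% lower by genotype, 19.0% and 20.1% by cold, and 15.2% and 15.1% by salt, at an adjusted p under 0.05.

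Of 26 other lipid-transfer protein genes 19 could be tested. For genotype edgeR passed none of them, while 8 reached p under 0.05 before adjustment and DESeq2 called 1 higher and 5 lower. With cold 4 rose and 4 fell. AZI1, which acts in priming of systemic defence, rose from 22.5 to 1441 CPM in Col-0 and from 26.7 to 1380 in lsm8-1, by 5.84 (log2, SE 0.24, adjusted p = 3.16e-05). EARLI1, a relative of AZI1, rose by 3.96, the glycosylphosphatidylinositol-anchored LTPG5 by 2.51 and the xylogen protein gene XYP1 by 1.55. AT1G62510 fell by 3.53 (SE 0.50, adjusted p = 0.00144), LTPG6 by 1.05, DIR1-LIKE by 0.74 and LTP7 by 0.65. LTP7 was lost without the GM pair and under scaling by totals (highest adjusted p 0.0607). With salt 6 rose and 5 fell. AT1G62510 rose by 2.36 (SE 0.48, adjusted p = 0.00919), from 9.03 to 43.8 CPM in Col-0 and from 15.0 to 79.7 in lsm8-1, opposite to its fall in the cold. LTP8 rose by 1.81, LTPG5 by 1.60, EARLI1 by 0.94, XYP1 by 0.79 and LTPG4 by 0.65. The calls of LTPG5 and LTPG4 ended without the 20 °C pair, that of LTPG5 also in DESeq2, and that of EARLI1 without the 4 °C pair (adjusted p up to 0.0900). DIR1-LIKE fell by 2.34 (SE 0.16, adjusted p = 1.92e-04), AIR1 by 1.70, DIR1, a carrier in systemic acquired resistance, by 1.55, XYP2 by 1.36 and LTPG2 by 1.19. Over the 19 genes the median log2 effect was −0.05 for genotype, 0.29 for cold and 0.26 for salt, beside 0.02, −0.03 and 0.00 over all tested genes.

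**Figure D5:**
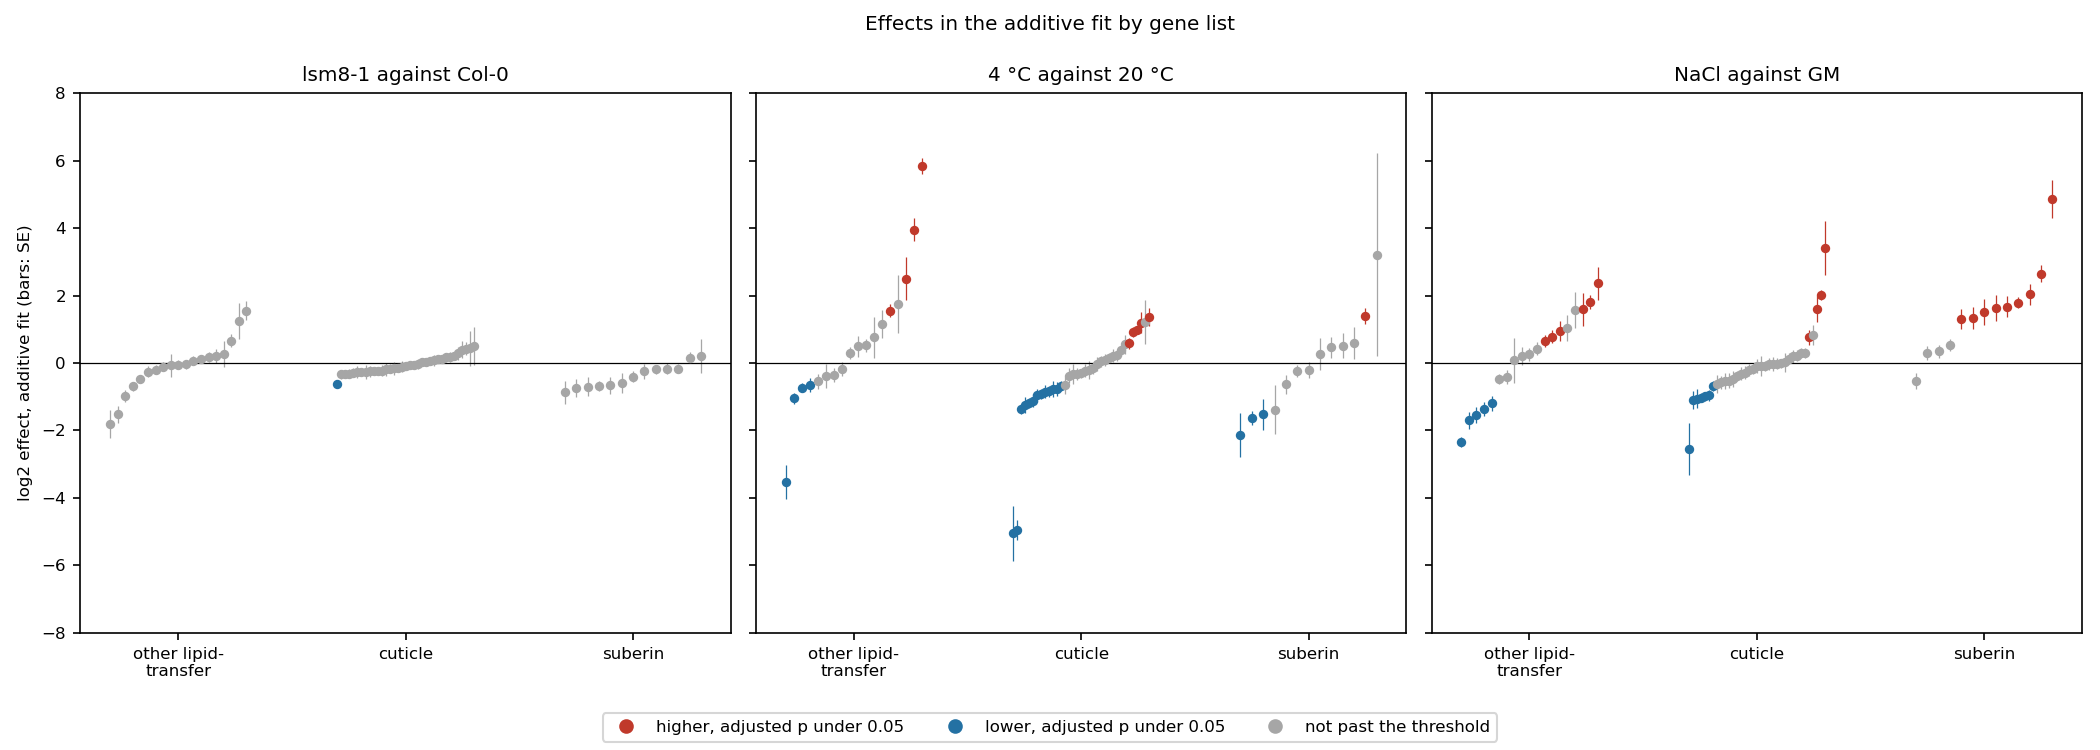
Log2 effects (y axis) of genotype, cold and salt in the additive fit for the tested genes of 3 lists, the other lipid-transfer proteins, cuticle and suberin (x axis, genes in order of effect within a list); each point is 1 gene, bars are standard errors, and colours mark an adjusted p under 0.05. AIR1, with no read in any soil library, is left out of the cold panel; 9 of 13 suberin genes are coloured as higher with salt and none as lower.

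Of 38 cuticle genes, 35 were tested. Cold moved 5 up and 13 down. LACS1, a long-chain acyl-CoA synthetase, rose by 1.37, CER1 and CER3, which make wax alkanes, by 1.20 and 0.92, MYB96 by 0.98 and CER2 by 0.58. CER4, which makes wax alcohols, fell by 5.06 (SE 0.83, adjusted p = 0.00268) and DEWAX, a repressor of wax genes, changed by −4.96 (SE 0.31, adjusted p = 7.74e-05). HTH, KCS9, MYB30 and KCS1 fell by 1.11 to 1.37. With salt 4 rose: the wax ester synthase WSD1 by 3.40 (SE 0.80, adjusted p = 0.0161), MYB96 by 2.02 (SE 0.15, adjusted p = 2.35e-04), CER1 by 1.60 and the fatty acid elongase CER6 by 0.76. The 7 that fell included CER4 with a log2 change of −2.56, GPAT8, an acyltransferase of cutin synthesis, by 1.10, LACS1 by 1.06 and HTH by 1.03. CER4 and CER6 lost their salt call without the 20 °C pair, and CER4 also in the salt experiment alone (adjusted p up to 0.0825). By genotype MYB96 alone passed, lower by 0.61 on the log2 scale in lsm8-1 (log2 change −0.61, SE 0.10, adjusted p = 0.0415); the call was lost without any 1 of the 4 pairs, in the salt experiment alone and under scaling by totals (adjusted p up to 0.164). The list's median was −0.08 for genotype, −0.31 for cold and −0.10 for salt.

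Suberin is the lipid polyester of root and wound barriers. All 13 of its listed genes were tested, and 9 rose with salt while none fell. MYB41, an activator of suberin synthesis, rose by 4.86 (SE 0.56, adjusted p = 0.00159), from 0.962 to 14.2 CPM in Col-0 and from 0.461 to 29.1 in lsm8-1. The elongase KCS2 rose by 2.65 (SE 0.25, adjusted p = 5.31e-04), the alcohol-forming reductase FAR4 by 2.04, the transporter ABCG6 by 1.78, the feruloyl transferase ASFT by 1.67 and the acyltransferase GPAT5 by 1.64. MYB41 alone of these 9 genes was higher in lsm8-1 than in Col-0 under NaCl. The rest were lower there, among them FAR5 (56.5 and 21.9 CPM, Col-0 first), GPAT5 (42.7 and 21.2), ABCG6 (82.1 and 44.7) and KCS2 (136 and 109). With cold KCS2 rose by 1.40, and CYP86B1, FAR1 and FAR4 fell by 2.14, 1.64 and 1.53. CYP86B1 and FAR4 were under 1 CPM in every soil library. At 20 and 4 °C CYP86B1 had 24 and 2 reads in Col-0 and 10 and 6 in lsm8-1. FAR4 had 20 and 8 reads in Col-0 and 12 and 4 in lsm8-1. FAR4 also lost its cold call without the NaCl pair (adjusted p 0.0939 in edgeR's test). None passed by genotype in edgeR, with 5 at an unadjusted p under 0.05 and 1 lower in DESeq2. The list's median was −0.40 for genotype, −0.22 for cold and 1.5 for salt. Over the same plate libraries none of the 8 root markers passed as higher with salt, 3 fell, and their median was −1.04.

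The genes whose pattern was most like a member's were ranked by Pearson's r of log2(CPM + 1) over the 8 libraries, centred within each experiment, among 17241 genes. For LTP1 these were ARA12 (r = 0.994), AT3G52105 (0.991) and HSP18.2 (0.988), and for LTP2 AT5G17650 (0.998), AT3G55430 (0.992) and HSP18.2 (0.988). For LTP3 they were PAP1 (0.994), AT4G37180 (0.993) and AT5G40800 (0.993), and for LTP4 AT3G03341 (0.997), AT4G08570 (0.995) and TET15 (0.994). For LTP6 they were AT2G28540 (0.979), ORG1 (0.978) and AT5G27230 (0.977), and for AT3G58550 EX2 (0.989), ABCA1 (0.986) and AT1G21160 (0.978). ORG1 stood at 25.6 and 55.4 CPM in warm soil and at 14.8 and 45.8 CPM on GM, Col-0 first. With 8 libraries that share their conditions, these values only order the genes.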

How the data were processed

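Total RNA from tissue labelled as leaves was sequenced, 1 library per group, with standard Illumina libraries per the labels' protocols. The authors deposited, per library, read counts and RPKM for each gene (cold experiment) or transcript model (salt experiment), per the file headers; the genome build was TAIR10, per the submitters' processing notes, with neither the aligner nor the counting program given in the sources used here. RPKM was used as deposited by the authors. Models were summed per locus, and features a file does not list were taken as 0. The 10 members and all gene lists were chosen with earlier results of these data known.

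Counts were filtered at 1 CPM in at least 2 libraries (20228 genes), scaled by TMM and fitted with edgeR 4.0.16 in R 4.3.3 (glmQLFit and glmQLFTest; genotype plus 4 conditions). Members were described by TMM CPM, ratios with exact Clopper-Pearson 95% intervals and log2(CPM + 1), a pseudocount of 1, with no test. Intervals and the floor of 3 counts cover counting error only. The labels do not say how many plants a library holds. With 1 library per group, the residual of the additive fit is the departure from an equal genotype effect in every condition. The p-values rest on that departure, over soil and plates together, and not on a spread between like libraries. They apply to these libraries only. The text names all members, up to 6 genes per direction and effect of the other lists by size of effect, LSM8 and the 3 nearest patterns of 6 members; the few genes named beyond that were chosen after their values were seen. Alternatives were DESeq2 1.42.0 and its size factors, library totals, no filter, other pseudocounts (0.25 and 5), a 4-fold rule, no level minimum, the top transcript model, each experiment alone, and leaving out each condition's pair. Scripts were tested on simulated data.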

Additional observations from a re-analysis of the deposited data

Results flagged for a closer look

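The ratio of lsm8-1 to Col-0 took opposite sides of 1 in different conditions for LTP3, LTP4 and AT5G46900, each at least 1.5-fold with counting intervals clear of 1. For LTP3 it was 0.358 at 4 °C, 4.08 on GM and 1.76 with NaCl. For LTP4, under 5 CPM in these 6 libraries, it was 0.150 at 20 °C (2 against 12 reads), 0.305 at 4 °C and 3.17 on GM. For AT5G46900 it was 0.654 on GM and 1.62 with NaCl (58 against 39 reads). Its near-identical neighbour AT5G46890 had 0.633 and 1.37, the latter with an interval of 0.933 to 2.03 that includes 1, and their summed ratio with NaCl was 1.48 (1.12 to 1.97), short of 1.5-fold. With 1 library per group, the difference between conditions was not tested for these genes.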

How the results depend on the processing

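The additive fit compares the genotypes within each condition and so pairs them by condition. With 1 library per group, there were no replicates within a condition to pair. Each alternative log2 value of a single member ratio was set against the main one. The yardstick was the distance from the middle of the log2 counting interval to its end. Of 328 alternative values, 261 differed by less than this distance, 67 moved further and 0 called ratios turned direction. With a 4-fold rule, the members lower in lsm8-1 at 4 °C went from 1 to 0 and those higher on GM from 3 to 1; with no level minimum, the former became 2 and the members higher at 4 °C in Col-0 went from 1 to 2.

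For the other lipid-transfer proteins, genotype calls were 0 higher and 0 lower; they became 1 and 5 with DESeq2, 1 and 2 with no filter on low counts, 1 and 2 with library totals, and 2 and 5 in the cold experiment alone, while leaving out 1 condition's pair gave 0 to 2 lower. DESeq2 called 7 of them higher in the cold in place of 4. The 1 cuticle gene lower by genotype became 0 with library totals, in the salt experiment alone and without any 1 pair, while the fit of the cold experiment by itself gave 2 higher and 6 lower; cuticle genes higher in the cold became 8 there in place of 5. Suberin genes lower by genotype became 1 with DESeq2 and in the cold experiment alone, those lower in the cold became 1 in place of 3 in the cold experiment alone, and those lower with salt became 1 in place of 0 in the salt experiment alone. Fits of 1 experiment have 1 residual degree of freedom. The cause of these changes was not tested. Depth limits LTP4 and AT2G37870 on soil (2 to 118 and 6 to 18 reads) and LTP3 at 20 °C.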
